A study of Mus musculus with 24 samples.

Results

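Transcripts of 10 genes that mark Kupffer cells were followed in whole liver and in cultured primary hepatocytes of mice with hepatocyte deletion of NEMO, of KEAP1 or of both. The genes were Clec4f, Vsig4, Marco, Timd4, Cd5l, C1qa, C1qb, C1qc, Adgre1 and Csf1r, taken by symbol from the 18820 genes measured on 1-colour Affymetrix arrays, and each was represented by 1 probe set. The 24 arrays fell into 8 groups of 3, and the labels give 8 weeks as the age and male as the sex of every mouse. Controls carried floxed NEMO alleles (NEMOf/f) in every comparison, the KEAP1 comparison included, and no KEAP1-floxed control was analysed here. NEMO knockouts (NEMOΔhepa), KEAP1 knockouts (KEAP1Δhepa) and double knockouts (NEMOΔhepa/KEAP1Δhepa) carried the Alfp-Cre transgene, driven by albumin and alpha-fetoprotein elements that are active in hepatocytes, so the alleles of Kupffer cells were not the target of the deletion. Hepatocytes were released from the liver by collagenase perfusion, left to adhere overnight in medium with serum and given fresh medium, and the labels name no step that removes other liver cells.

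Kupffer cells are the resident macrophages of the liver, lying in the sinusoids, where they take up bacteria, aged red blood cells and debris from the blood. They depend on signalling through the receptor for colony-stimulating factor 1, and contacts with sinusoidal endothelium, stellate cells and hepatocytes maintain their identity. When resident cells are lost, monocytes can enter the niche and take up the resident programme, with Timd4 being acquired late. NEMO is needed by the IKK kinases that switch on NF-kB, and KEAP1 sends the antioxidant transcription factor NRF2 to degradation.

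The 3 C1q genes lie side by side on chr4:136880126-136898844 (GRCm38.p6), a stretch of 18719 bases, and the other 7 genes lie on 7 other chromosomes. Upstream sequences are shown for 5 of the genes because Marco, Vsig4 and C1qb were among the largest changes below, while Clec4f and Timd4 were the 2 that did not pass the test against control in liver with all arrays, without liver control 3 or without the 4 arrays in doubt described below. They are the bases that end just before the RefSeq gene start, read 5′ to 3′ on the strand of the gene, from RefSeq on GRCm38.p6. Capitals mark GAGGAA, the core letters bound by PU.1 (the macrophage transcription factor encoded by Spi1), or their reverse complement. The windows are chr1:120505025-120505274 on the minus strand for Marco, chrX:96293439-96293688 on the minus strand for Vsig4, chr4:136886201-136886450 on the minus strand for C1qb, chr6:83656117-83656366 on the minus strand for Clec4f and chr11:46810549-46810785 on the plus strand for Timd4.
Marco: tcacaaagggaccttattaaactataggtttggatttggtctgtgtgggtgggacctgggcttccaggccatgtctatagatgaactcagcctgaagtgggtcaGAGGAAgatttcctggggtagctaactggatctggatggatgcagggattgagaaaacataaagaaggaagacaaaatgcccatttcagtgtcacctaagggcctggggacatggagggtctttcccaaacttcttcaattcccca
Vsig4: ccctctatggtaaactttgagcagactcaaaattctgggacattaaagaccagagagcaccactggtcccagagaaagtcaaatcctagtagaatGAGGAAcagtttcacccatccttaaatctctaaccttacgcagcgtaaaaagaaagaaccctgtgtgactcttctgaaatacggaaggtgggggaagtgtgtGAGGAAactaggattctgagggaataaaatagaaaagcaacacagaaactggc
C1qb: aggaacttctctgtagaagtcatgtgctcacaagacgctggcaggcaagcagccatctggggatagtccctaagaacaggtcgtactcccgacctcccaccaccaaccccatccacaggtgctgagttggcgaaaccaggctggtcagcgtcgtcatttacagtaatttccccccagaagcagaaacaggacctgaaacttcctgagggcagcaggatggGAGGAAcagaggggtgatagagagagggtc
Clec4f: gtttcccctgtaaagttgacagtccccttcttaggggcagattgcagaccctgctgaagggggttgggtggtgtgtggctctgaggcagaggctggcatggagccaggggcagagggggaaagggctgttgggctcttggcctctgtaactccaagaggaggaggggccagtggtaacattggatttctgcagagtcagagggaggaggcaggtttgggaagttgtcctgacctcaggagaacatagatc
Timd4: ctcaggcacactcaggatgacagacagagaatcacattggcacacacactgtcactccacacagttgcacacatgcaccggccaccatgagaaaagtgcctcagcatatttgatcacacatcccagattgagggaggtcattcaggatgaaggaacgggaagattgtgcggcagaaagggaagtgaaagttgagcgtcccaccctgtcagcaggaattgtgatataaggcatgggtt
The letters were searched for in the windows of 7 members, as C1qa and Adgre1 had no promoter entry and Csf1r was left out by name. They occurred on either strand in 5 of these 7 windows, those of Marco, Vsig4, C1qb, C1qc and Cd5l. Among such windows of mouse genes, 22.8% of 23344 held them. No reason is given for leaving out Csf1r, and whether its window holds the letters is not known here. The count of 5 of 7 windows therefore cannot be set against the share among mouse genes. Vsig4 held 2 matches, and the windows of Clec4f and Timd4 held 0. A match of these 6 letters describes the sequence and is not a binding site. Whether a match goes with the size of a change was not tested, and Clec4f and Timd4 did rise in NEMO and double knockout cultures.

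The labelled tissues were checked against marker lists. The mean of 8 hepatocyte markers, Alb and Apob among them, lay between 11.84 and 12.24 (log2) on all 24 arrays. The hepatocyte cultures also carried transcripts of Kupffer cells, sinusoidal endothelium and stellate cells, and their part in the results on cultures is given by values below. The deleted genes were checked on the arrays, without knowing whether their probes lie in the deleted part. Ikbkg, which encodes NEMO, was at 6.14 to 6.26 in NEMO knockout liver against 6.81 and 6.86 on liver controls 1 and 2, and Keap1 was at 5.38 to 5.76 in KEAP1 knockout liver against 6.04 and 6.35. In culture Ikbkg was at 6.26 to 6.60 without NEMO against 6.63 to 6.69 on controls, and Keap1 at 5.73 to 5.91 without KEAP1 overlapped the controls at 5.90 to 6.32. There were 4 arrays in doubt. The library labelled liver control 3 had the NRF2 targets Nqo1 and Slc7a11 at 9.17 and 9.29, against 5.37 and 2.63 at most on the other liver controls. The liver double knockouts had Nqo1 at 9.25 to 9.36 and Slc7a11 at 9.62 to 10.23, above its level on liver control 3. KEAP1 knockout livers had Nqo1 at 8.60 to 9.01 and Slc7a11 at 7.82 to 8.53. Ikbkg on liver control 3 was at 6.40, within the double knockout range of 6.18 to 6.47. Keap1 on liver control 3 was at 5.88, against 6.04 and 6.35 on the other liver controls. Counts of the 10 genes in liver against control are therefore given with and without this array. Liver double knockout 3 carried fat cell RNA (Adipoq at 7.17, against 2.76 at most on the 20 arrays not in doubt), and hepatocyte control 1 and hepatocyte double knockout 3 carried Xist at 9.65 and 9.76 despite the male label. No label says whether replicates came from separate mice, so p-values measure the spread between these arrays, and in bulk RNA fewer cells of a type and less RNA per cell cannot be told apart.

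In cultured hepatocytes, all 10 Kupffer cell genes were higher without NEMO and higher still, by their means, without both NEMO and KEAP1. For each of the 10 genes the group means ran in the order control, KEAP1 knockout, NEMO knockout, double knockout, although the neighbours in this order did not all differ in a test. Against control, all 10 were called in NEMO knockout cultures and all 10 in double knockout cultures, but 2 in KEAP1 knockout cultures (limma, Benjamini-Hochberg adjusted p under 0.05). The share of all genes called higher was 4.61%, 6.73% and 1.45% in these comparisons. The median change of the 10 genes was 1.79 in NEMO knockouts, 0.95 in KEAP1 knockouts and 2.16 in double knockouts, against -0.02, -0.00 and -0.03 over all genes (log2 differences). The 3 comparisons share the 3 control arrays.

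**Figure D1:**
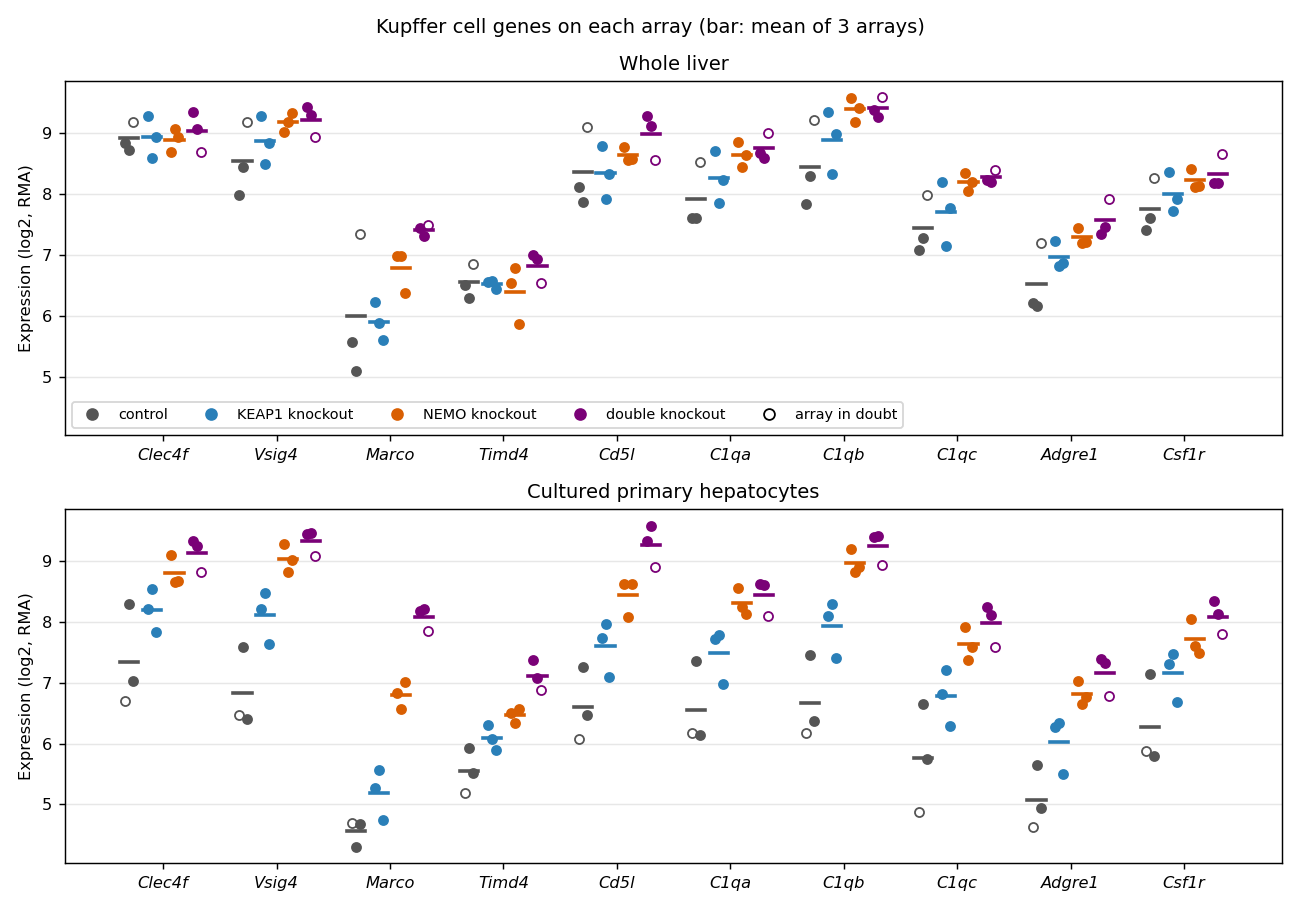
Expression (log2, y axis) of the 10 Kupffer cell genes on each array, with whole liver above and cultured hepatocytes below. Points are arrays coloured by genotype, bars are means of 3 arrays, and open points are the 4 arrays in doubt. In culture the double knockout arrays lie above the control arrays for each of the 10 genes, as for 13.1% of all genes. In liver Clec4f and Timd4 overlap between all genotypes.

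Marco, a scavenger receptor that binds bacteria, showed the widest range. In control cultures it was at 4.69, 4.30 and 4.68 (log2), and in KEAP1 knockout cultures at 5.27, 5.56 and 4.74. It was at 6.82, 6.57 and 7.01 in NEMO knockout cultures and at 8.18, 8.22 and 7.85 in double knockout cultures. The 4 genotypes did not overlap, with control lowest and double knockout highest. Marco rose 4.74-fold without NEMO (log2 change 2.25 ± 0.20 SE, adjusted p = 2.93e-05) and 11.5-fold without both (3.52 ± 0.20, adjusted p = 6.39e-07). Double knockout cultures exceeded NEMO knockout cultures by 1.28 ± 0.20 (2.43-fold, adjusted p = 0.00352) and KEAP1 knockout cultures by 2.89 ± 0.20 (7.43-fold, adjusted p = 3.83e-05). The change in KEAP1 knockout cultures, 0.63 ± 0.20, did not pass the test (adjusted p = 0.148), although those arrays too lay above every control array, as 10.1% of all genes did.

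The C1q genes encode the chains of the recognition molecule of the classical complement pathway, which macrophages make. C1qb was at 6.17, 7.45 and 6.37 in control cultures, 8.09, 8.30 and 7.40 in KEAP1 knockout cultures, 9.20, 8.81 and 8.91 in NEMO knockout cultures and 9.39, 9.42 and 8.93 in double knockout cultures. Control 2 was high enough to overlap the lowest KEAP1 knockout array, and both groups lacking NEMO lay above every control and KEAP1 knockout array. C1qb rose 4.96-fold without NEMO (2.31 ± 0.30, adjusted p = 0.000366), 2.41-fold without KEAP1 (1.27 ± 0.30, adjusted p = 0.049) and 5.99-fold without both (2.58 ± 0.30, adjusted p = 0.000112). C1qa and C1qc rose 3.35-fold and 3.65-fold without NEMO and 3.69-fold and 4.66-fold without both. The enzymes and regulators that act with C1q in serum, most of them made by hepatocytes, did not follow it. Of 7 measured genes of that list 0 rose by limma in any of the 3 comparisons, with 1, 1 and 4 at an unadjusted p under 0.05 in either direction. C2, the protease cut during activation, fell by 0.50 without NEMO (adjusted p = 0.0212) and by 0.49 without both (adjusted p = 0.0163), and C1s1, a protease that pairs with C1q, fell by 0.67 without both (adjusted p = 0.000798).

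Vsig4, a complement receptor of resident macrophages that captures opsonised bacteria, was at 6.47, 7.59 and 6.41 in control cultures and at 8.22, 8.48 and 7.64 in KEAP1 knockout cultures. It was at 9.28, 8.81 and 9.02 in NEMO knockout cultures and at 9.44, 9.46 and 9.08 in double knockout cultures. All 3 knockout groups lay above the controls, and the lowest KEAP1 knockout array was just above control 2. Vsig4 rose 4.64-fold without NEMO (2.21 ± 0.28, adjusted p = 0.000346), 2.44-fold without KEAP1 (1.29 ± 0.28, adjusted p = 0.0369) and 5.67-fold without both (2.50 ± 0.28, adjusted p = 9.64e-05). The KEAP1 calls for Vsig4 and C1qb rest on few arrays: leaving out 1 array at a time gave from 0 to 8 called genes, with 8 when hepatocyte control 2 was left out (1.6% of all genes were then called higher) and 0 when hepatocyte control 1, hepatocyte control 3, KEAP1 knockout 1 or KEAP1 knockout 2 was (between 0.547% and 1.33% of all genes). Without the 4 arrays in doubt limma called 0, with 7 at an unadjusted p under 0.05, against 1.34% of all genes called higher.

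Clec4f, a lectin found in mice on Kupffer cells and few other cells, was at 6.70, 8.29 and 7.03 in control cultures and at 8.22, 8.54 and 7.83 in KEAP1 knockout cultures. NEMO knockout cultures were at 9.10, 8.66 and 8.67, and double knockout cultures at 9.32, 9.24 and 8.83. Control 2 was the highest control, as it was for 9 of the 10 genes, and for Marco it was the lowest. Clec4f rose 2.77-fold without NEMO (1.47 ± 0.32, adjusted p = 0.014) and 3.45-fold without both (1.79 ± 0.32, adjusted p = 0.00286).

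Timd4, a phosphatidylserine receptor for dying cells that marks long-resident Kupffer cells, was at 5.20, 5.93 and 5.52 in control cultures and at 6.30, 6.07 and 5.89 in KEAP1 knockout cultures. It was at 6.50, 6.34 and 6.56 in NEMO knockout cultures and at 7.37, 7.08 and 6.88 in double knockout cultures. The double knockout arrays lay above all others. Timd4 had the smallest rise of the 10 genes without NEMO, 1.89-fold (0.92 ± 0.18, adjusted p = 0.00728), and rose 2.95-fold without both (1.56 ± 0.18, adjusted p = 0.000125). Between double and NEMO knockout cultures Timd4 differed by 0.64 ± 0.18 (adjusted p = 0.0761), and by 0.75 ± 0.17 without the 4 arrays in doubt (adjusted p = 0.0245), when 2 of the 10 genes and 2.39% of all genes were called higher.

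Cd5l, a secreted protein of tissue macrophages that limits their death, was at 6.07, 7.26 and 6.47 in control cultures, at 8.62, 8.09 and 8.62 without NEMO and at 9.33, 9.57 and 8.90 without both. These 3 groups did not overlap, and the lowest and highest KEAP1 knockout cultures were at 7.09 and 7.97. Cd5l rose 3.59-fold without NEMO (1.84 ± 0.29, adjusted p = 0.0018) and 6.35-fold without both (2.67 ± 0.29, adjusted p = 8.07e-05). Adgre1, an adhesion receptor used to identify mouse macrophages, had group means of 5.07 ± 0.52, 6.03 ± 0.47, 6.81 ± 0.19 and 7.16 ± 0.34 (SD, n = 3) in control, KEAP1, NEMO and double knockout cultures. It rose 3.35-fold without NEMO and 4.27-fold without both. Csf1r, the receptor for colony-stimulating factor 1, had group means of 6.27 ± 0.76, 7.15 ± 0.42, 7.72 ± 0.29 and 8.09 ± 0.27 in the same order. It rose 2.72-fold without NEMO (1.44 ± 0.31, adjusted p = 0.0136) and 3.51-fold without both. Clec4f and Csf1r each lost the NEMO call in 3 of 13 alternative settings, with adjusted p up to 0.0693 and 0.0688, whereas the other 8 kept it in all 13, and all 10 kept the double knockout call in all 13.

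When KEAP1 was lost on top of NEMO in culture, Marco was the 1 gene called of 10, and 2.16% of all genes were called higher. The differences of the other 9 genes ran from 0.14 ± 0.30 for C1qa to 0.83 ± 0.29 for Cd5l, and the 95% interval for C1qa ran from -0.51 to 0.79. When NEMO was lost on top of KEAP1, 6 of the 10 were called higher, Marco, Cd5l, C1qb, Vsig4, Adgre1 and Timd4, against 2.16% of all genes, and all 10 had every double knockout array above every KEAP1 knockout array, as 11.1% of all genes did. Leaving out 1 array at a time gave from 2 to 6 called genes in that comparison, with 2 or 3 when KEAP1 knockout 1 or 3 or double knockout 1 or 2 was left out, when between 0.648% and 1.4% of all genes were called higher. The difference of Marco kept both of these calls in every setting.

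Genes of other cell types moved together with the Kupffer cell genes in culture. All 8 markers of sinusoidal endothelium rose in each of the 3 knockouts against control, with median changes of 1.65, 1.34 and 1.73 in NEMO, KEAP1 and double knockouts. Lyve1, the hyaluronan receptor, rose 1.93 ± 0.24 without KEAP1 (adjusted p = 0.00108), and the C-type lectin Clec4g rose 1.92 ± 0.22 without NEMO (adjusted p = 0.000193). Of 8 stellate cell markers, 7, 2 and 7 rose, with median changes of 2.13, 0.63 and 1.42. The mean of this list was between 4.53 and 5.18 on control cultures, between 5.36 and 5.51 without KEAP1, between 6.59 and 6.78 without NEMO and between 6.17 and 6.22 without both. Dcn, which encodes decorin, rose 3.18 ± 0.25 without NEMO (adjusted p = 1.46e-05) and 2.65 ± 0.25 without both (adjusted p = 2.84e-05). None of the 8 hepatocyte markers was called by limma in these comparisons, their median changes lay between -0.05 and -0.01, and 2, 0 and 0 had an unadjusted p under 0.05. The mean of the endothelial list was 6.00, 6.54 and 5.64 on control cultures and between 7.16 and 8.01 on every knockout culture, and control 2 was the highest control for this list as for the Kupffer cell list. The part of non-hepatocyte cells carried over into culture in the rise of the Kupffer cell genes was not tested.

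**Figure D2:**
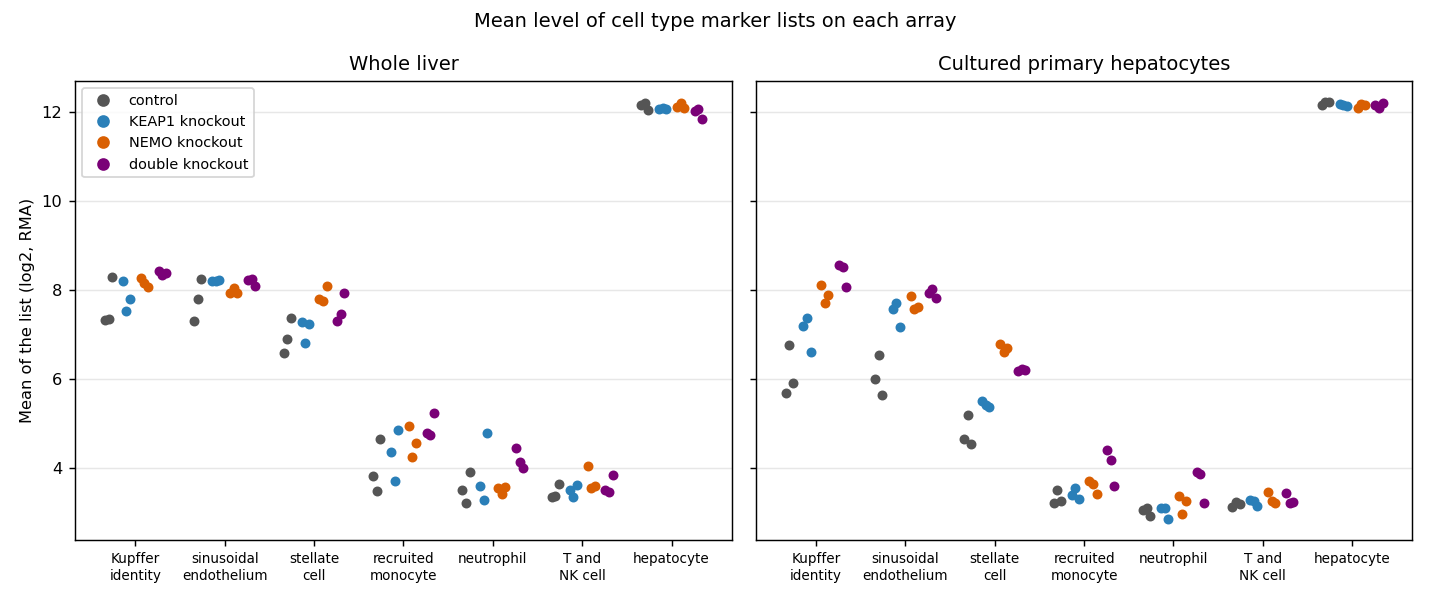
Mean expression (log2, y axis) of marker lists on each array in whole liver (left) and cultured hepatocytes (right), with points for arrays coloured by genotype. In culture the endothelial and stellate lists lie lower on every control array than on any knockout array, the Kupffer list of control 2 lies above that of KEAP1 knockout 3, and the hepatocyte list lies between 11.84 and 12.24 on all arrays.

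Control cultures held less of every Kupffer cell transcript than control liver. All 10 genes were called lower in culture (3.84% of all genes were), with no overlap between control cultures and control livers for any of them (10% of all genes lay below without overlap). The level in culture ran from 28.9% of that in liver for C1qb (log2 difference -1.79 ± 0.33, adjusted p = 0.00148) to 49.9% for Timd4 (adjusted p = 0.005). In NEMO knockouts 0 of the 10 differed by limma between culture and liver, with 0 at an unadjusted p under 0.05, and 3.77% of all genes were called. Their differences ran from -0.57 ± 0.34 for C1qc to 0.07 ± 0.21 for Timd4. For C1qc, Adgre1 and Csf1r every NEMO knockout culture lay below every NEMO knockout liver, as 15.1% of all genes did. Without the 4 arrays in doubt 0 were called and 2 had an unadjusted p under 0.05. In double knockouts 0 of the 10 differed by limma, with differences from -0.41 ± 0.28 for Adgre1 to 0.66 ± 0.36 for Marco and 0 at an unadjusted p under 0.05, against 2.24% of all genes called. Marco was the 1 gene whose double knockout cultures (7.85 to 8.22) all lay above the double knockout livers (7.31 to 7.49), as 11% of all genes did. In KEAP1 knockouts all 10 were lower by their means, from -0.96 to -0.43, with 0 called by limma, 8 at an unadjusted p under 0.05 and 2.49% of all genes called. Without the 4 arrays in doubt 3 of these 10 were called lower, against 5.27% of all genes. In controls the count of calls, but not the direction, moved with the arrays used. Without liver control 3, 8 genes were called lower (2.52% of all genes), and without the 4 arrays in doubt 4 were (2.33%). The count was 0 with the 6 control arrays fitted alone, which gives the same differences with a spread estimated from those arrays. The share of all genes called in that fit is not given here, so this count cannot be set against it. With all arrays, without liver control 3 and without the 4 arrays in doubt, all 10 genes were lower in control cultures. Each was lower without overlap, as 10%, 15.3% and 20.6% of all genes were in these 3 sets of arrays. Each also had an unadjusted p under 0.05 by limma, with median differences of -1.53, -1.32 and -1.01 over the 10.

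**Figure D3:**
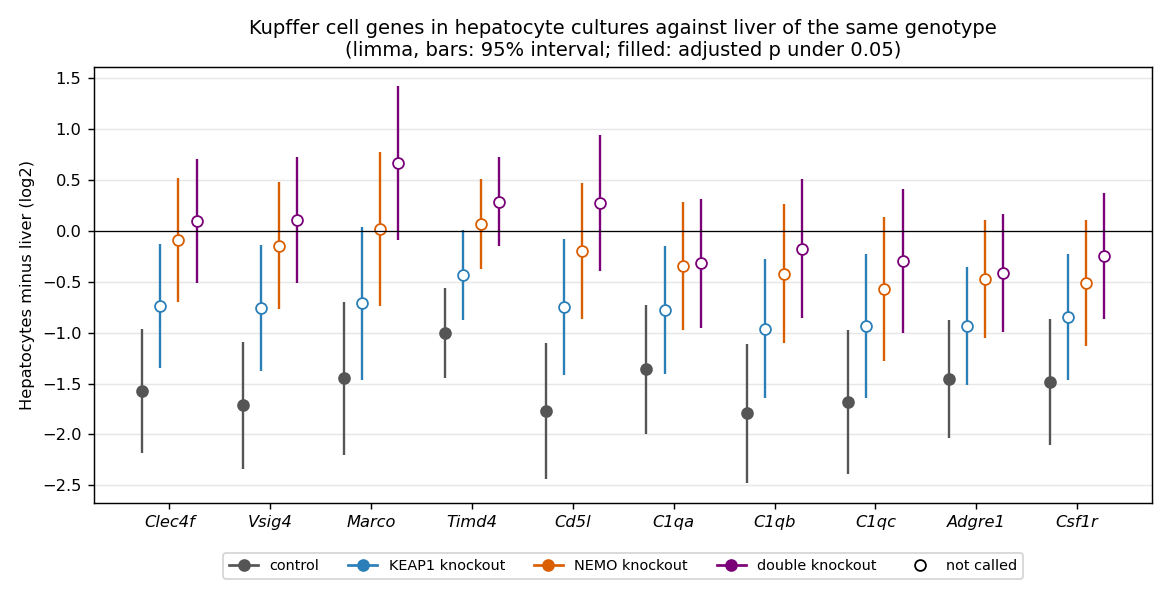
Difference between cultured hepatocytes and whole liver of the same genotype (log2, y axis) for the 10 genes (x axis), from the fit on 24 arrays. Points are differences coloured by genotype, bars are 95% intervals, and filled points passed an adjusted p under 0.05. The filled points are the 10 control differences, where culture held 28.9% to 49.9% of the level in liver, and the NEMO and double knockout intervals include 0.

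In whole liver with all 12 arrays, 0 of the 10 genes were called by limma in any of the 7 comparisons. Against control, 5 genes in NEMO knockout liver, 0 in KEAP1 knockout liver and 7 in double knockout liver had an unadjusted p under 0.05. Of all genes, 1.01%, 0% and 0% were called higher in these comparisons. Between double and NEMO knockout liver 1.05% of all genes were called, between double and KEAP1 knockout liver 0%, and between NEMO and KEAP1 knockout liver 2.69%, with 0, 3 and 0 of the 10 genes at an unadjusted p under 0.05. Without liver control 3, 7 genes rose in NEMO knockout liver, 1 in KEAP1 knockout liver and 8 in double knockout liver, against 5.38%, 1.83% and 7.31% of all genes called higher. Without the 4 arrays in doubt the counts were 8, 1 and 8, against 8.48%, 3.71% and 6.37%. Without liver control 3 the median change of the 10 genes was 0.99, 0.55 and 1.05, against -0.05, -0.03 and -0.05 over all genes. With all arrays it had been 0.69, 0.25 and 0.76, and without the 4 arrays in doubt it was 0.99, 0.55 and 1.09. Liver control 3 was the highest of the controls for each of the 10 genes, whose mean was 8.29 on it and 7.32 and 7.34 on controls 1 and 2. The endothelial list stood at 8.26 on it against 7.30 and 7.81, the stellate list at 7.37 against 6.58 and 6.89 and the recruited monocyte list at 4.63 against 3.82 and 3.47. The part of these cells in the level of control 3 was not tested.

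Marco in liver was at 5.57 and 5.10 on controls 1 and 2 and at 7.35 on control 3. It was at 6.23, 5.88 and 5.60 in KEAP1 knockout liver, at 6.98, 6.99 and 6.38 in NEMO knockout liver and at 7.45, 7.31 and 7.49 in double knockout liver. Control 3 lay above every NEMO knockout array and within the double knockout range, and the other controls lay below every knockout array. With all arrays the differences were 0.78 ± 0.43 without NEMO (adjusted p = 0.367) and 1.41 ± 0.43 without both (adjusted p = 0.14). Without control 3, Marco rose by 1.45 ± 0.22 without NEMO (adjusted p = 0.00365) and by 2.09 ± 0.22 without both (adjusted p = 0.000233). It was also the 1 gene that then differed between knockouts, being higher in double than in KEAP1 knockout liver by 1.52 ± 0.20 (adjusted p = 0.0217, with 0.0319% of all genes called higher) and in NEMO than in KEAP1 knockout liver by 0.88 ± 0.20 (adjusted p = 0.0261, with 2.51%). Without the 4 arrays in doubt 1 of the 10 genes was called in each of these comparisons, against 0.0425% and 4.12% of all genes called higher.

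Adgre1 was at 6.21, 6.17 and 7.20 in control liver, 7.23, 6.82 and 6.86 in KEAP1 knockout liver, 7.45, 7.20 and 7.22 in NEMO knockout liver and 7.35, 7.47 and 7.92 in double knockout liver. Controls 1 and 2 lay below every knockout array and control 3 did not. Without control 3 Adgre1 rose in all 3 knockouts, by 1.10 ± 0.17 without NEMO (adjusted p = 0.00396), by 0.78 ± 0.17 without KEAP1 (adjusted p = 0.0347) and by 1.39 ± 0.17 without both (adjusted p = 0.000681), and it was the 1 gene called in KEAP1 knockout liver.

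C1qb was at 7.84, 8.31 and 9.22 in control liver, 9.59, 9.19 and 9.42 in NEMO knockout liver and 9.39, 9.28 and 9.60 in double knockout liver. Control 3 was the highest control and lay above the lowest NEMO knockout array. With all arrays the difference without NEMO was 0.94 ± 0.31 (adjusted p = 0.141), and without control 3 it rose by 1.33 ± 0.25 (adjusted p = 0.00881). C1qa, C1qc, Vsig4 and Csf1r were also called, with rises of 1.04, 1.02, 0.96 and 0.72 without NEMO once control 3 was left out and adjusted p from 0.0138 to 0.046. Cd5l rose in double knockout liver by 1.00 (adjusted p = 0.021) and was at 0.64 ± 0.24 in NEMO knockout liver (adjusted p = 0.13).

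Clec4f and Timd4 were the 2 genes with no call against control in liver. Clec4f was at 8.84, 8.73 and 9.19 in control liver, 9.28, 8.59 and 8.94 in KEAP1 knockout liver, 8.69, 9.07 and 8.93 in NEMO knockout liver and 9.34, 9.07 and 8.69 in double knockout liver, so that all 4 genotypes overlapped on the full set of arrays. Its difference without NEMO was -0.02 ± 0.20 with all arrays (95% interval -0.45 to 0.41) and 0.11 ± 0.21 without control 3 (adjusted p = 0.79). Timd4 was at 6.51, 6.29 and 6.85 in control liver and at 6.55, 6.79 and 5.87 in NEMO knockout liver, with differences of -0.15 ± 0.22 and, without control 3, -0.00 ± 0.23 (adjusted p = 0.998). In double knockout liver the differences without control 3 were 0.25 ± 0.21 for Clec4f (adjusted p = 0.465) and 0.42 ± 0.23 for Timd4 (adjusted p = 0.253). They were, without the 4 arrays in doubt, 0.42 ± 0.19 for Clec4f (adjusted p = 0.206) and 0.56 ± 0.23 for Timd4 (adjusted p = 0.154), both at an unadjusted p under 0.05, and the remaining double knockout livers lay above the remaining controls for all 10 genes, as 25.4% of all genes did. Whether Clec4f and Timd4 changed less than the other members was not tested.

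**Figure D4:**
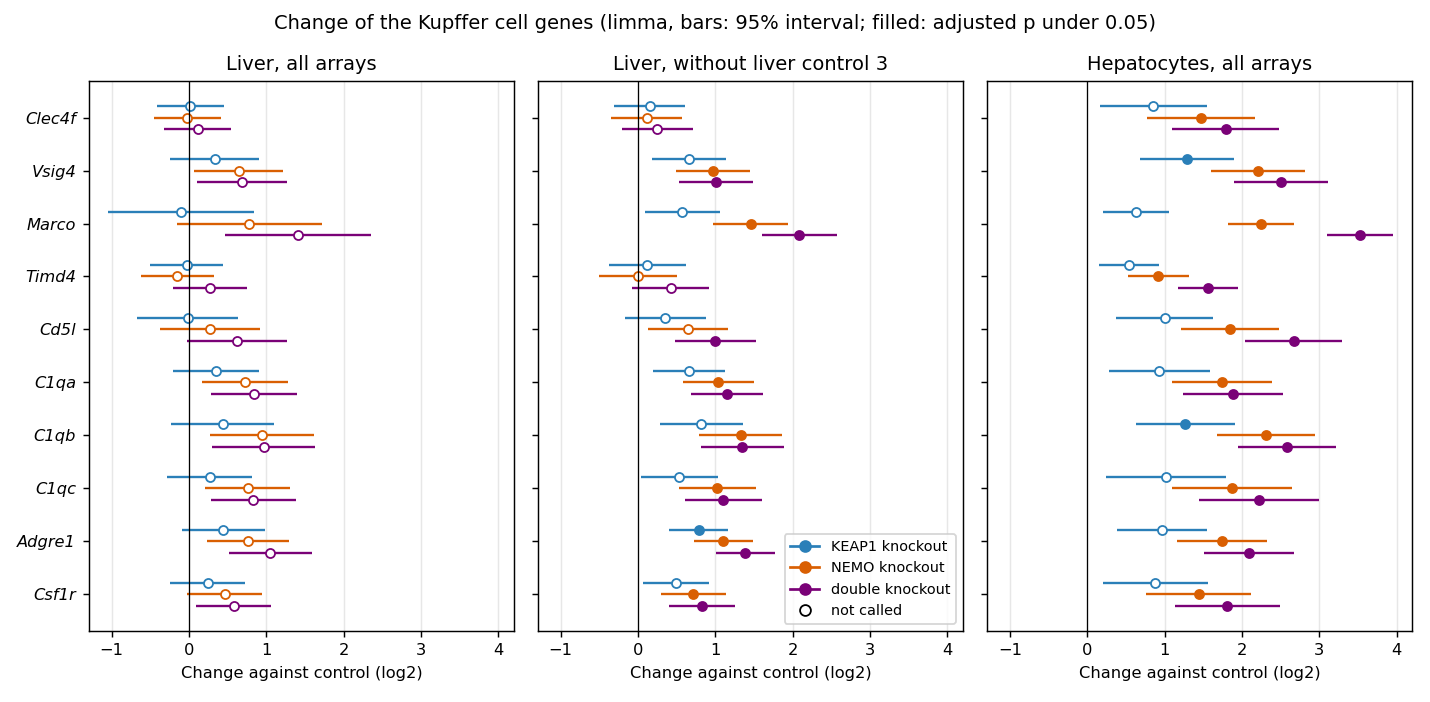
Change against control (log2, x axis) of the 10 genes (y axis) in liver with all arrays (left), in liver without liver control 3 (middle) and in cultured hepatocytes (right). Points are limma estimates coloured by genotype, bars are 95% intervals, and filled points passed an adjusted p under 0.05. No point is filled in the left panel, while in the middle 7 NEMO, 1 KEAP1 and 8 double knockout points are filled and on the right 10, 2 and 10.

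How the members varied with each other differed in form between the tissues. Across the 12 liver arrays the correlation between pairs of the 10 genes ran from 0.16 to 0.98 with a median of 0.77 over 45 pairs. Across the 12 culture arrays the same correlations ran from 0.808 to 0.998 with a median of 0.972. In liver the 17 pairs with Clec4f or Timd4 had a median of 0.35, and the other 28 ran from 0.69 to 0.98 with a median of 0.84. In culture the medians of these 17 and 28 pairs were 0.95 and 0.97. These values describe arrays that share genotypes and non-hepatocyte content. The genes most like the mean of the 10 over the liver arrays were Pold4 (r = 0.96), Prkcb (0.95), Myo9a (0.95), Apbb1ip (0.94), Atp9b (0.94), Atp8a1 (0.94), Itgb2 (0.93), Cd53 (0.93), Igsf6 (0.93) and Sprr1a (0.93). In culture, in a ranking added after the data were seen, Cybb, a subunit of the phagocyte oxidase, followed the 10 genes most closely (r = 0.997).

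Other lists of macrophage genes were counted in the same comparisons. Of 13 further Kupffer cell genes, 7 rose without NEMO, 2 without KEAP1 and 10 without both in culture. Folr2, a folate receptor of resident macrophages, rose by 1.44 ± 0.30 without NEMO (adjusted p = 0.0112) and by 1.96 ± 0.30 without both (adjusted p = 0.00102). Cdh5, which endothelium also makes in quantity, rose by 1.54 ± 0.23 without NEMO (adjusted p = 0.00112). Of 11 transcription regulators used by Kupffer cells, 6, 2 and 6 rose. Spi1, which encodes PU.1, rose by 1.61 ± 0.21 without NEMO (adjusted p = 0.000509) and by 2.06 ± 0.21 without both (adjusted p = 5.93e-05). Spic, needed by macrophages that recycle iron, rose by 1.10 ± 0.17 and 1.60 ± 0.17, and Zeb2, which holds the identity of tissue macrophages, by 1.79 ± 0.20 and 1.87 ± 0.20.

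Of 6 measured genes that act below the receptor Csf1r, 3, 0 and 4 rose in the same cultures, with 2 at an unadjusted p under 0.05 by limma without KEAP1. The adaptor Tyrobp rose by 1.66 ± 0.28 without NEMO (adjusted p = 0.00278) and by 2.26 ± 0.28 without both (adjusted p = 0.000198). Of 6 niche signals, 3, 1 and 3 rose, and 5 were lower in control cultures than in control liver. Gdf2, a ligand of the bone morphogenetic protein family, rose by 1.36 ± 0.19 in NEMO knockout cultures (adjusted p = 0.000747) and was the niche signal called in NEMO knockout liver with all arrays, at 1.02 ± 0.17 (adjusted p = 0.0177), and without liver control 3, at 1.01 ± 0.19 (adjusted p = 0.00983).

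General macrophage genes followed the 10 genes, with 9, 2 and 11 of 11 rising in culture. Cd68, a lysosomal protein of macrophages, rose by 2.30 ± 0.25 without NEMO (adjusted p = 0.000119) and by 2.75 ± 0.25 without both (adjusted p = 2.13e-05). Of 9 genes of lipid-associated macrophages, 6, 1 and 7 rose. Mmp12, a macrophage elastase, rose by 3.98 ± 0.40 without NEMO (adjusted p = 6.55e-05) and by 4.41 ± 0.40 without both (adjusted p = 2.1e-05). In NEMO knockout liver with all arrays, Gpnmb, a lysosomal glycoprotein, rose by 2.95 ± 0.60 (adjusted p = 0.0374), and Clec7a, the beta-glucan receptor, by 1.90 ± 0.35 (adjusted p = 0.0245), the 2 genes called of the 9. Without liver control 3, Gpnmb rose by 3.86 ± 0.34 (adjusted p = 0.000198) and Clec7a by 2.38 ± 0.24 (adjusted p = 0.000405), and 7 of the 9 rose.

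Markers of recruited monocytes had low levels in culture. Of 8 measured, 0 rose by limma without NEMO or KEAP1 (1 and 0 at an unadjusted p under 0.05) and 2 rose without both, Itgam by 1.38 ± 0.20 (adjusted p = 0.000594) and Plac8 by 1.11 ± 0.25 (adjusted p = 0.011). Their mean ran from 3.19 to 3.50 on control cultures and from 3.57 to 4.39 on double knockout cultures, which did not overlap. In liver with all arrays 0 of the 8 were called by limma without NEMO or without both, with 2 and 5 at an unadjusted p under 0.05. Without liver control 3, 1 rose without NEMO and 4 without both, and without the 4 arrays in doubt 5 and 4, where 8.48% and 6.37% of all genes were called higher. Their mean ran from 3.47 to 4.63 on control livers, 3.70 to 4.85 without KEAP1, 4.24 to 4.94 without NEMO and 4.73 to 5.24 without both over all arrays. Ccr2, the receptor by which monocytes enter tissue, rose in the last setting by 2.12 ± 0.47 without NEMO (adjusted p = 0.012) and 1.94 ± 0.51 without both (adjusted p = 0.0353), where with all arrays it stood at 1.67 ± 0.48 (adjusted p = 0.105) and 1.54 ± 0.48 (adjusted p = 0.142). Markers of T and natural killer cells (8 genes) and of B cells (4 genes) had 0 called by limma in the 3 culture comparisons, with at most 1 of each list at an unadjusted p under 0.05. Of 6 neutrophil genes, 1 rose, S100a8 by 1.07 ± 0.27 in double knockout cultures (adjusted p = 0.025). The part of these cells in the liver results was not tested.

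Whether a gene changed differently in liver and in culture was tested on all 24 arrays. With all arrays the change in liver minus that in culture ran from -1.57 to -0.98 for NEMO loss, from -1.02 to -0.52 for KEAP1 loss and from -2.11 to -1.04 for loss of both. By limma 0 of the 10 passed in each, with 10, 2 and 10 at an unadjusted p under 0.05, and 0.0691%, 0% and 0.0691% of all genes passed. The lowest adjusted p was 0.0986, for Cd5l under loss of both (-2.04 ± 0.45). Without liver control 3 the differences were nearer to 0, from -1.35 to -0.64, from -0.70 to -0.06 and from -1.67 to -0.71, with 0 passing by limma, 6, 0 and 8 at an unadjusted p under 0.05 and 0.133%, 0.0106% and 0.0319% of all genes passing. Without the 4 arrays in doubt they ran from -1.07 to -0.40, from -0.46 to 0.04 and from -1.66 to -0.84, with 0 passing by limma, 5, 0 and 9 at an unadjusted p under 0.05 and 0.0638%, 0.0106% and 0.00531% of all genes passing. Without hepatocyte control 2, 2 genes passed for NEMO loss and 6 for loss of both, as did 0.25% and 0.335% of all genes. The interaction of NEMO and KEAP1 loss in liver, which asks whether both losses together differ from their sum, had 0 of the 10 called by limma with all arrays, without liver control 3 and without the 4 arrays in doubt. At an unadjusted p under 0.05 there were 0, 1 and 4 genes, the median interaction was -0.14, -0.42 and -0.50, and 0.0106%, 0.0744% and 0.345% of all genes were called.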

How the data were processed

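RNA of whole liver and cultured hepatocytes was hybridised to 24 arrays. The authors deposited a table of log2 values for every probe set, and the submitters' processing notes name RMA. Its version and options and the genome build were not given in the sources used here, and without scan dates no batch was tested. Values between 0.51 and 13.6, with array medians from 4.03 to 4.23, fit a log2 scale. The number of arrays, 3 in a group, limits the precision. Folds that start from low values may be understated, which was not tested.

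Of 35556 probe sets, 21218 had 1 gene symbol in the platform annotation, 1881 had several and 12457 were not listed or had none. The brightest probe set stood for a gene, which gave 18820 genes with no filter on low values. All 10 members matched the RefSeq table of GRCm38.p6 by Entrez identifier. Upstream sequences of 7 members were taken from the RefSeq promoter table.

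The tests used limma 3.58.1 (R 4.3.3) with lmFit and eBayes with an intensity trend, two-sided, with Benjamini-Hochberg adjustment over all 18820 genes and a threshold of 0.05. Fits within a tissue used its 12 arrays, and fits across tissues all 24. There were 19 comparisons, each adjusted alone. The fit was tested on simulated data before use. Levels of different genes were not compared.

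The members and the 19 gene lists (155 symbols, 139 measured) were chosen with earlier results of these data known, as were the 4 arrays in doubt. The text names all 10 members, at most 4 called genes per list and comparison, and the 10 genes most like the members over the liver arrays. Replicate numbers were tried as a block: residuals of arrays with the same number correlated above 0.1 for all 3 numbers only between liver controls and liver double knockouts (0.12 to 0.23), where the block called 1 member. Other alternatives were leaving out the 4 arrays, liver control 3 or each array, no trend, quantile normalization, a filter on dim genes (log2 of 5 on at least 3 arrays), the mean of probe sets, and fitting only the groups compared.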

Additional observations from a re-analysis of the deposited data

How the results depend on the processing

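Counts of the 10 Kupffer cell genes called by limma were refitted under each alternative, and 0 member changes that were called in any of these fits reversed direction. Without the 4 arrays in doubt, the counts in liver became 8 without NEMO, 1 without KEAP1 and 8 without both, with 1 between double and KEAP1 knockouts and 1 between NEMO and KEAP1 knockouts. All of these were 0 with every array. In culture they became 0 without KEAP1 (2 with every array) and 2 between double and NEMO knockouts (1 with every array), and between culture and liver 4 in controls (10 with every array) and 3 in KEAP1 knockouts (0 with every array). Fitting only the groups compared gave 1 between NEMO and KEAP1 knockout liver, 0 without KEAP1 and 2 between double and NEMO knockouts in culture, and between culture and liver 0 in controls, 1 in NEMO knockouts and 1 in KEAP1 knockouts. In KEAP1 knockout cultures the count was 0 with no intensity trend, 1 after quantile normalization and 1 with the mean of probe sets. With the replicate number as a block the count for double knockout liver was 1, against 0 without the block, and the block moved no other count by more than 1.5 times. The filter on dim genes moved none of the 19 counts by more than 1.5 times.

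Leaving out 1 array at a time gave 0 to 7, 0 to 1 and 0 to 8 called genes in liver without NEMO, without KEAP1 and without both, where the highest counts came without liver control 3, and 0 to 1 between double and KEAP1 and between NEMO and KEAP1 knockout liver. In culture it gave 8 to 10 without NEMO, 0 to 8 without KEAP1, 10 to 10 without both and 2 to 6 between double and KEAP1 knockouts. Between culture and liver it gave 8 to 10 in controls and 0 to 1 in KEAP1 knockouts. For the difference between the tissues' changes it gave 0 to 2 for NEMO loss and 0 to 6 for loss of both, the highest without hepatocyte control 2. Where 2 arrays were left in a group, their spread was taken from the pooled fit.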

Other observations

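The cell types around the Kupffer cells did not all stand alike in culture. Against liver of the same genotype, double knockout cultures had 0 of 10 Kupffer cell genes and 0 of 8 endothelial markers lower by limma (0 and 2 at an unadjusted p under 0.05), but 7 of 8 stellate cell markers lower, with a median difference of -1.24. In that comparison 2.24% of all genes were called, higher and lower together. Between double and NEMO knockout cultures, Lum, a stellate cell matrix gene, fell by 0.90 ± 0.20 (adjusted p = 0.0264), while Lyve1 rose by 1.05 ± 0.24 (adjusted p = 0.0298), the lipase Lpl by 1.73 ± 0.31 (adjusted p = 0.00861), the endotoxin receptor Cd14 by 1.43 ± 0.33 (adjusted p = 0.0305) and Marco by 1.28 ± 0.20 (adjusted p = 0.00352). The bile duct list stood at 6.99 and the fat cell list at 6.74 on liver double knockout 3.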
